A study of Cricetulus griseus with 9 samples.

Results

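The nuclear-encoded subunits of the respiratory chain and ATP synthase were chosen by symbol (Nduf, Uqcr, Cyc1, Cycs, Cox and Atp5 names, leaving out the Ndufaf assembly factors). Of 6753 genes measured, 59 matched: 32 of complex I, 7 of complex III, 8 of complex IV and 12 of complex V. Ndufa4 was counted with complex IV, of which it is a subunit in spite of its name. No row matched Cycs, so cytochrome c itself was not analysed here. RNA sequencing was done on MI5-4 cells, a subline of Chinese hamster ovary (CHO) cells described as hexokinase null, with 3 libraries in each of 3 groups. WTHK2 is the label for cells carrying wild-type hexokinase 2, LAC stands for empty-vector cells kept with sodium lactate at 10 mM over 24 h, and EV for the empty-vector cells that are the control for both. All 3 groups share the MI5-4 background, 1 cell line, which the study's design describes as lacking hexokinase. The sources used here do not give the promoter of the construct or say whether lines were clones, and no sodium control without lactate is among the samples.

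Mitochondria make most cellular ATP by passing electrons from NADH and succinate to oxygen through complexes I to IV of the inner membrane and by letting the protons pumped on the way drive ATP synthase, complex V. Each of complexes I, III, IV and V is built from subunits of both genomes, with a few core subunits of complexes I, III and IV and of the proton channel of complex V made inside the mitochondrion and the rest encoded in the nucleus. In complex I and complex V the chemistry is done by core subunits, and a larger number of small accessory subunits surrounds them. The nuclear genes are known for being transcribed together, with NRF1, GABP, YY1 and the PGC-1 coactivators among their known regulators.

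The values were the authors' normalized CPM (counts scaled to a common library total). Steps between values put the effective library sizes between 18050959 and 26238659 reads. The lowest gene mean in the table was 20.4 CPM and the members averaged 56.1 to 1191 CPM, with at least 1043 reads in every library on the scale of the steps. Log2(CPM + 1) was fitted with limma for the whole table of 6753 genes, and "called" means a p under 0.05 after Benjamini-Hochberg adjustment over that table. Fold changes are on the log2(CPM + 1) scale, and adjusted p-values are those of this fit. All 8 mesenchymal marker genes checked for CHO cells were listed, and 0 of 5 epithelial and 0 of 5 leukocyte markers were. The mesenchymal markers went both ways, with 6 higher and 2 lower (Cd44 and Cald1) in WTHK2 against EV, and 3 higher and 3 lower in LAC against EV. Their summed level, most of it from Vim and Anxa2, was 6933 ± 64.7 CPM in WTHK2, 5971 ± 83.2 CPM in LAC and 5646 ± 78.4 CPM in EV (SD, n = 3 each). Whether replicates came from separate cultures is not labelled, and p-values then measure the spread among these libraries, which may be technical. Small respiratory genes have processed copies in mammalian genomes, and how reads shared with such copies were assigned is not given in the sources used here.

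Hk2, which encodes hexokinase 2, was measured at 66.6, 65.3 and 63.9 CPM in the libraries labelled WTHK2, 64.7, 70.4 and 68.5 CPM in LAC and 68.4, 68.7 and 64.9 CPM in EV. The 3 groups overlapped, with WTHK2 against EV at a log2 fold change of -0.044 (95% interval -0.16 to 0.067, adjusted p = 0.522). The libraries labelled WTHK2 therefore carry that label without a higher Hk2 level, and each direction given for them rests on the label. Hk1, which encodes another hexokinase, was listed at 279, 284 and 294 CPM in the libraries labelled WTHK2, 305, 302 and 300.2 CPM in LAC and 332, 321 and 318 CPM in EV. It was called lower in WTHK2 against EV at -0.18 ± 0.035 SE with adjusted p = 3.64e-04, and in LAC against EV at -0.097 ± 0.035 SE with adjusted p = 0.0277, with no overlap with EV in either. RNA of 2 hexokinase genes was thus listed in all 3 groups, which does not show whether active enzyme is made. Whether reads of the construct would count toward the Hk2 row is not given in the sources used here. In bulk RNA, a change in all cells and a change in some of them cannot be told apart.

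The libraries labelled WTHK2 were first set against EV, the control for the HK2 label. Nuclear-encoded respiratory genes were higher in the libraries labelled WTHK2: 47 of 59 members were called higher and 0 lower, where 46.4% of all genes were called, 21.0% higher and 25.4% lower. Among the 3890 genes within the same range of mean CPM, 23.4% were called higher. The median log2 fold change of the members was 0.20, a fold of 1.15, beside -0.0082 over all genes. The changes were small, from -0.021 for Uqcrc2 to 0.40 for Ndufb7. For 49 members every library labelled WTHK2 stood above every EV library, which was so for 26.6% of all genes, and 0 members were separated below EV, beside 30.5% of all genes. With every library rescaled to the same median, 53 members were called higher, and 57.3% of all called genes were higher, beside 45.3% with the authors' scaling. The summed level of the members was 11630 ± 80.5 CPM in the libraries labelled WTHK2 and 10319 ± 94.5 CPM in EV (SD, n = 3 each).

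In complex I, which oxidizes NADH and passes the electrons to ubiquinone, 25 of 32 members were called higher in the libraries labelled WTHK2, with a median log2 fold change of 0.20. Ndufb7, an accessory subunit of the membrane arm, stood at 109, 106 and 110.1 CPM in the libraries labelled WTHK2, 108, 105 and 101 CPM in LAC and 79.2, 84.8 and 81.2 CPM in EV. All 6 of the WTHK2 and LAC libraries lay above the 3 EV libraries, with a log2 fold change of 0.40 with SE 0.047 (adjusted p = 1.69e-06) in WTHK2 against EV. Ndufa3, another membrane-arm subunit, had 115, 121 and 126 CPM in the libraries labelled WTHK2, 118, 109 and 121 CPM in LAC and 93.0, 86.6 and 97.5 CPM in EV, again with no overlap with EV and a log2 fold change of 0.38 with SE 0.053 (adjusted p = 1.20e-05). Ndufa12, an accessory subunit of the matrix arm, stood at 84.4, 81.2 and 81.2 CPM in the libraries labelled WTHK2, 80.9, 76.3 and 87.4 CPM in LAC and 64.5, 59.2 and 66.3 CPM in EV. Its lowest value outside EV, in LAC replicate 2, was above every EV library, with a log2 fold change of 0.37 with SE 0.058 (adjusted p = 3.84e-05) for WTHK2 against EV. Ndufs5, an accessory subunit on the intermembrane-space side, had 85.3, 79.1 and 82.9 CPM in the libraries labelled WTHK2, 86.5, 83.2 and 84.8 CPM in LAC and 69.3, 60.2 and 68.9 CPM in EV. EV replicate 2 was the lowest library for Ndufs5, and the groups stayed apart (0.32 ± 0.057 SE with adjusted p = 1.75e-04 as log2 fold change in WTHK2 against EV). The next largest rises were those of Ndufa5, of the matrix arm, by 0.30 and Ndufb9, a membrane-arm subunit, by 0.27 on the log2 scale (adjusted p = 1.75e-04 for Ndufa5 and 6.27e-04 for Ndufb9). For Ndufb9, WTHK2 replicate 1 stood apart, with 452, 372 and 402 CPM in the libraries labelled WTHK2 and 344, 323 and 349.9 CPM in EV.

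In complex I 7 members were not called in this comparison. Ndufv1, the core subunit that binds FMN and oxidizes NADH, stood at 267, 260.2 and 270.3 CPM in the libraries labelled WTHK2, 298, 264 and 291 CPM in LAC and 268, 269 and 259 CPM in EV. The groups overlapped, and Ndufv1 was at 0.0032 in WTHK2 against EV (95% interval -0.085 to 0.091, adjusted p = 0.957). Among the other uncalled members, the core iron-sulfur subunit Ndufs8 and the accessory subunits Ndufa9, Ndufa10, Ndufb8 and Ndufs4 had log2 fold changes of 0.058, 0.083, 0.065, 0.057 and 0.092. Ndufa9 passed without WTHK2 replicate 1 (adjusted p = 0.0443). Of the 6 core subunits of complex I listed, 3 were called higher (Ndufs3, Ndufs7 and Ndufv2) with a median of 0.10, and of the 26 accessory subunits 22 were, with a median of 0.21. The call of Ndufs3 ended without EV replicates 1 or 2 or WTHK2 replicates 2 or 3 (adjusted p between 0.0946 and 0.152), which would leave 2 of 6 core subunits. Among accessory subunits, Ndufb10 lost its call without EV replicate 1 (adjusted p = 0.0543), Ndufa11 without EV replicates 1 or 2 (0.0505 and 0.0530), and Ndufc1 without any 1 EV library or WTHK2 replicate 3 (0.0568 to 0.106). The division into core and accessory subunits follows their known roles but was drawn up after the values were seen, and the difference between them was not tested.

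Complex III, which passes electrons from ubiquinol to cytochrome c, had 6 of 7 members called higher in WTHK2 against EV, and the log2 fold changes of the 7 had a median of 0.18. Uqcrfs1, the Rieske iron-sulfur protein and one of the redox subunits, stood at 238, 235 and 237 CPM in the libraries labelled WTHK2, 215, 206 and 222 CPM in LAC and 188, 184 and 193 CPM in EV. The 3 groups did not overlap one another, with the libraries labelled WTHK2 at the top, and Uqcrfs1 had a log2 fold change of 0.33 with SE 0.039 (adjusted p = 1.56e-06) against EV. Cyc1, cytochrome c1, which hands electrons to cytochrome c, had 239, 238 and 237 CPM in the libraries labelled WTHK2, 246, 233 and 229 CPM in LAC and 208, 211 and 213 CPM in EV, and a log2 fold change of 0.18 with SE 0.038 (adjusted p = 8.32e-04) in WTHK2 against EV. The small subunits Uqcr11 and Uqcrq rose by 0.21 and 0.18. Uqcr10 and Uqcrc1 passed narrowly, at 0.14 (adjusted p = 0.0462) and 0.097 (adjusted p = 0.0365). Leaving out any of EV replicates 1 or 2 or WTHK2 replicates 2 or 3 ended both calls, with adjusted p between 0.0549 and 0.228. Without EV replicate 3 the adjusted p of Uqcrc1 was 0.0832, and without LAC replicate 3 that of Uqcr10 was 0.0530. Uqcrc2, which with Uqcrc1 forms the matrix-facing core proteins, was the one member with a negative log2 fold change. It stood at 102, 107 and 107 CPM in the libraries labelled WTHK2, 109, 108 and 114 CPM in LAC and 108, 106 and 106 CPM in EV, with overlapping groups and -0.021 in WTHK2 against EV (95% interval -0.11 to 0.073, adjusted p = 0.730).

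**Figure D1:**
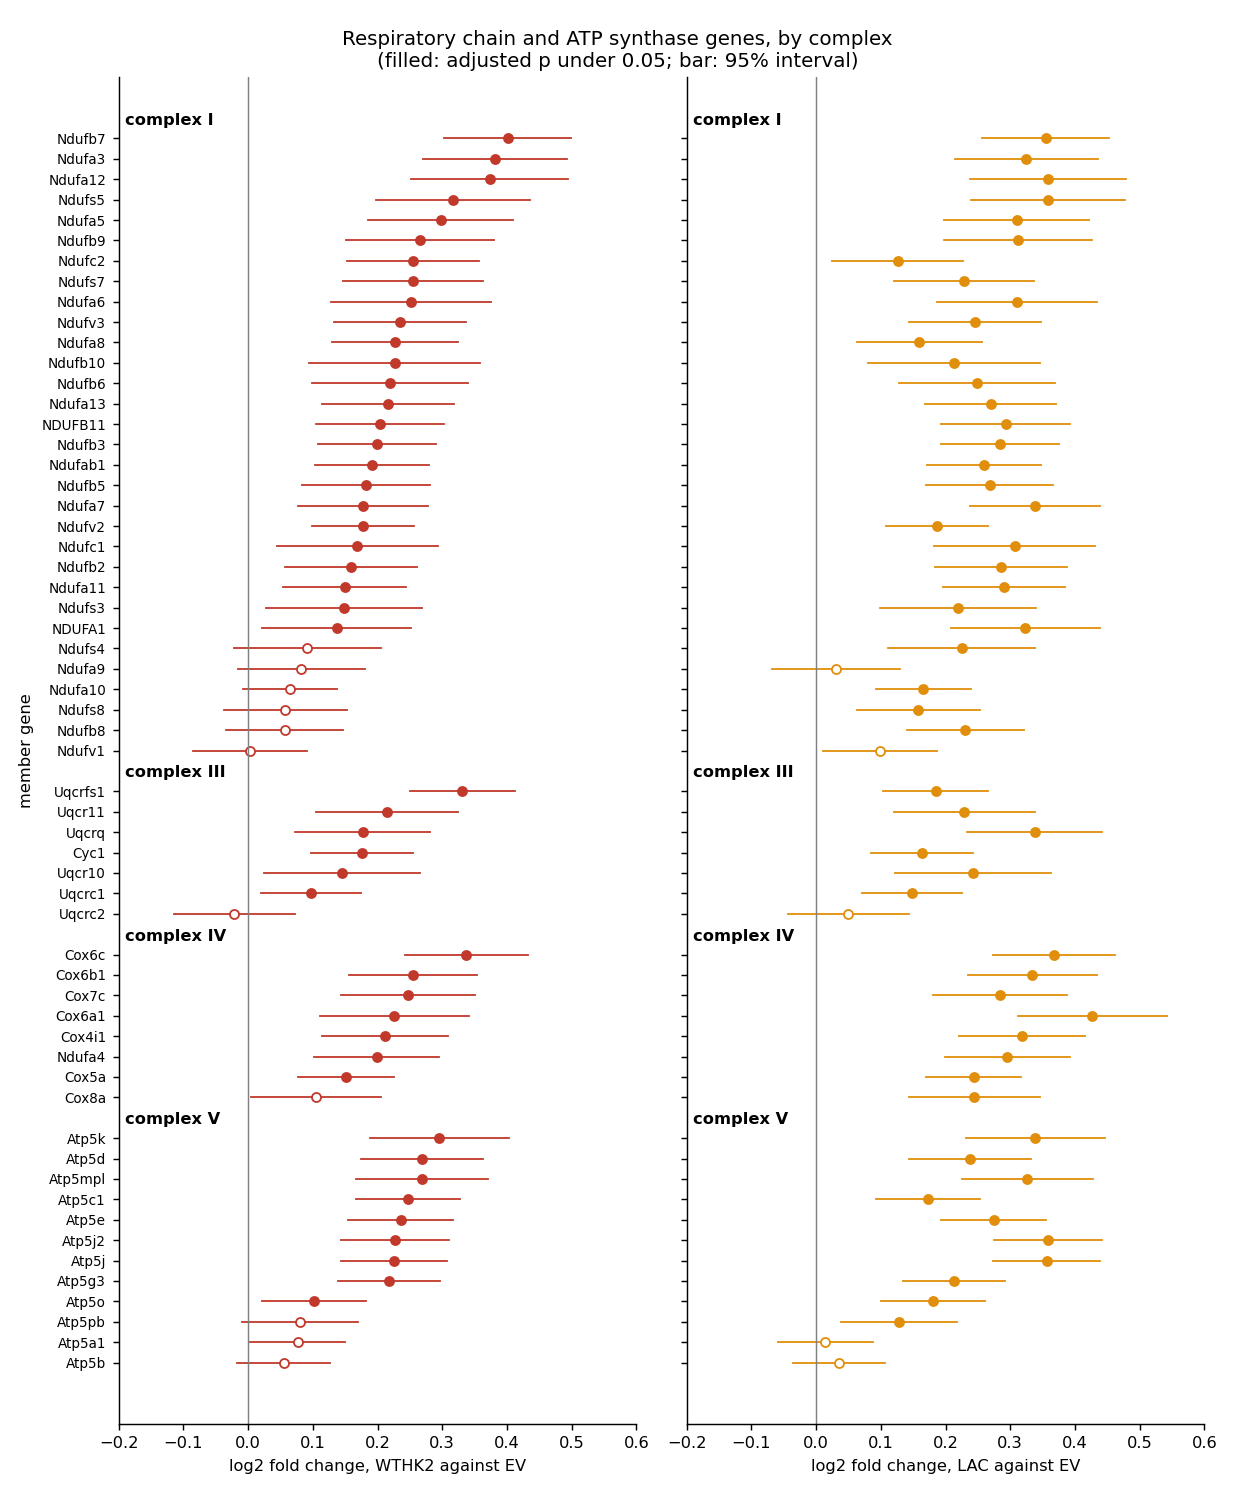
Log2 fold change with its 95% interval for 58 members, grouped by complex, in WTHK2 against EV on the left and LAC against EV on the right. Filled points passed an adjusted p of 0.05: 47 members on the left and 53 on the right, all above 0, while Uqcrc2, Ndufv1, Ndufa9, Atp5a1 and Atp5b are open on both sides.

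Complex IV, cytochrome c oxidase, reduces oxygen to water with a catalytic core made in the mitochondrion, and its nuclear members listed here surround that core. In the libraries labelled WTHK2, 7 of 8 were called higher than in EV, with a median log2 fold change of 0.22. Cox6c stood at 128, 129.9 and 125 CPM in the libraries labelled WTHK2, 130.3, 128 and 133 CPM in LAC and 97.5, 98.7 and 107 CPM in EV. The WTHK2 and LAC libraries overlapped each other and lay above EV, with a log2 fold change of 0.34 with SE 0.046 (adjusted p = 8.32e-06) in WTHK2 against EV. Cox6a1, the non-muscle isoform of subunit 6a, had 473, 409 and 424 CPM in the libraries labelled WTHK2, 549, 490.3 and 463 CPM in LAC and 372, 353 and 390.3 CPM in EV. Replicate 1 was highest in both WTHK2 and LAC, and Cox6a1 had a log2 fold change of 0.23 with SE 0.055 (adjusted p = 0.00252) in WTHK2 against EV. Cox6b1, on the intermembrane-space side, Cox7c and Cox4i1, the subunit that binds adenine nucleotides, rose by 0.26, 0.25 and 0.21, and Ndufa4 and Cox5a by 0.20 and 0.15. Cox8a did not pass at 0.10 (adjusted p = 0.0824), but passed without WTHK2 replicate 2 (adjusted p = 0.0246), the library in which it was lowest of the 3 labelled WTHK2.

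In complex V, where protons flowing through the membrane part turn a shaft inside the catalytic head, 9 of 12 members were called higher in the libraries labelled WTHK2, with a median log2 fold change of 0.23. Atp5k, subunit e of the dimer interface, stood at 131, 127 and 116 CPM in the libraries labelled WTHK2, 129.7, 123 and 134 CPM in LAC and 97.3, 103 and 105 CPM in EV. It had a log2 fold change of 0.30 with SE 0.052 (adjusted p = 1.25e-04) in WTHK2 against EV, and WTHK2 replicate 3 was the lowest library outside EV while still above all of EV. Atp5d and Atp5c1, of the rotating central stalk, rose by 0.27 and 0.25, and Atp5mpl, a small membrane subunit, by 0.27. Atp5j, of the peripheral stalk, had 221, 220.2 and 224 CPM in the libraries labelled WTHK2, 257, 233 and 239.6 CPM in LAC and 189, 190.2 and 190.0 CPM in EV, with a log2 fold change of 0.23 with SE 0.040 (adjusted p = 1.31e-04) in WTHK2 against EV. The libraries labelled WTHK2 lay within a narrow band for Atp5j, between LAC and EV with no overlap on either side.

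Atp5b, the catalytic beta subunit, stood at 1159, 1238 and 1239.5 CPM in the libraries labelled WTHK2, 1206, 1156 and 1225 CPM in LAC and 1188, 1155 and 1157 CPM in EV. The groups overlapped, and Atp5b was at 0.055 in WTHK2 against EV (95% interval -0.017 to 0.13, adjusted p = 0.197); it passed without WTHK2 replicate 1 (adjusted p = 0.0435). Atp5a1, the alpha subunit beside it in the head, had 321, 319.7 and 339 CPM in the libraries labelled WTHK2, 311, 311 and 316 CPM in LAC and 309, 306 and 314 CPM in EV. All 3 libraries labelled WTHK2 were above EV for Atp5a1, but the log2 fold change of 0.076 did not pass (95% interval 0.0028 to 0.15, adjusted p = 0.0823). Atp5pb, of the peripheral stalk, did not pass either, at 0.081 (adjusted p = 0.129). Atp5o, of the same stalk, passed at 0.10, but not without any 1 EV library or WTHK2 replicate 3 (adjusted p between 0.0595 and 0.150). Over the 5 head and central-stalk genes, 3 were called higher, and over the other 7 genes of complex V 6 were. This division was not planned, and the difference between its parts was not tested.

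**Figure D2:**
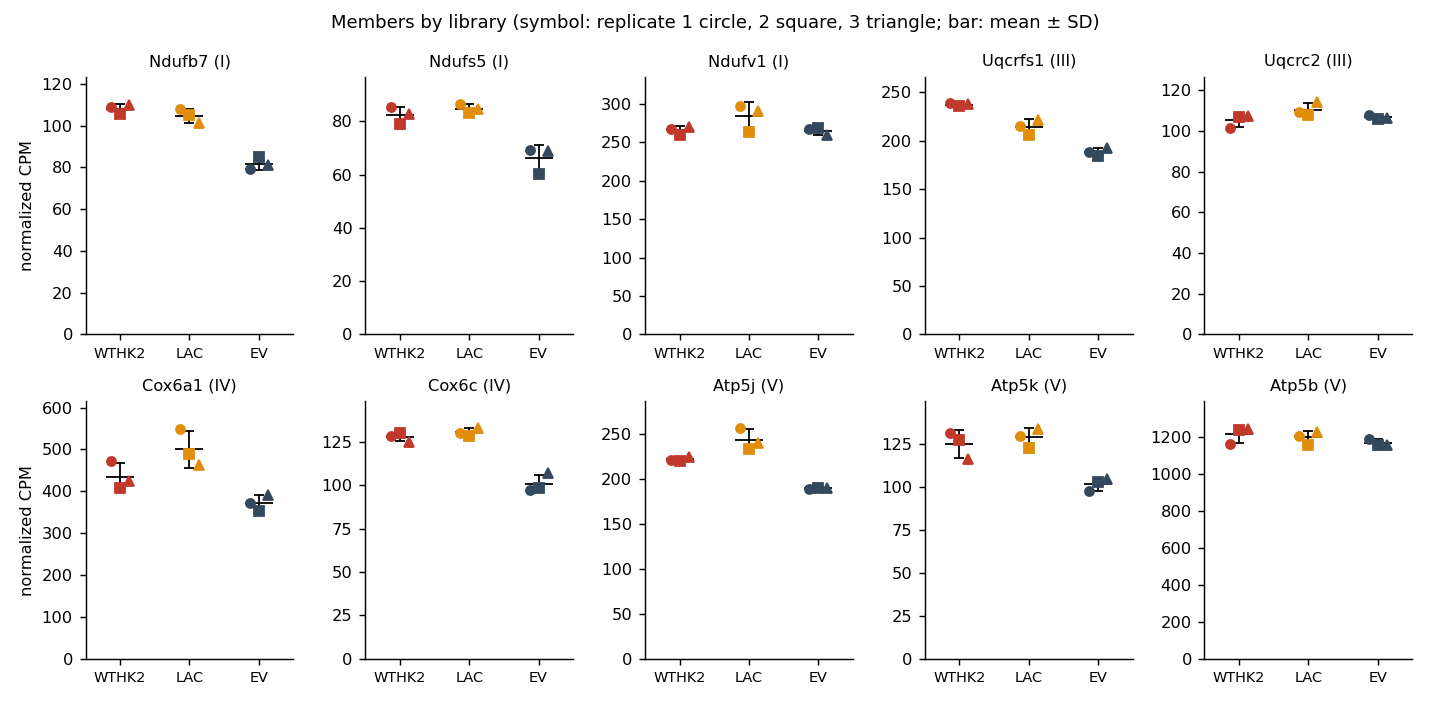
Normalized CPM of 10 members in each library on axes from 0, with WTHK2, LAC and EV from left to right; black bars are means ± SD of 3 libraries. For Ndufb7, Ndufs5, Uqcrfs1, Cox6a1, Cox6c, Atp5j and Atp5k all WTHK2 and LAC libraries lie above EV, and for Ndufv1, Uqcrc2 and Atp5b they do not.

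LAC was set against EV to ask what sodium lactate does to the empty-vector cells. Of the 59 members 53 were called higher in LAC and 0 lower, beside 49.5% of all genes called, 22.4% higher and 27.1% lower; within the members' range of mean CPM 25.8% of genes were higher. The median log2 fold change was 0.25, a fold of 1.19, beside -0.0035 over all genes, and the members ran from 0.014 for Atp5a1 to 0.43 for Cox6a1. For 52 members the LAC libraries lay above EV without overlap, as they did for 27.0% of all genes, and for 0 members they lay below, beside 30.8% of all genes. With every library rescaled to the same median, 54 members and 58.6% of all called genes were higher, beside 45.3% of called genes with the authors' scaling. The summed level was 12011 ± 434 CPM in LAC and 10319 ± 94.5 CPM in EV (SD, n = 3 each). Both comparisons use the same 3 EV libraries and so are not independent of each other.

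All 8 members of complex IV were called higher in LAC, with a median log2 fold change of 0.31. Cox6a1 stood at 549, 490.3 and 463 CPM in LAC and 372, 353 and 390.3 CPM in EV, a log2 fold change of 0.43 with SE 0.055 (adjusted p = 6.03e-06). Cox6c rose by 0.37, Cox6b1 by 0.33 and Cox4i1 by 0.32, with adjusted p of 3.98e-06, 1.49e-05 and 1.99e-05. Cox8a, uncalled in the first comparison, stood at 199, 177 and 185 CPM in LAC and 154, 157 and 162 CPM in EV, a log2 fold change of 0.24 with SE 0.049 (adjusted p = 3.90e-04). LAC replicate 1 was the highest LAC library for every member of complex IV but Cox6c, for which it was replicate 3.

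In complex I 29 of 32 members were called higher in LAC, with a median log2 fold change of 0.26. Ndufa12 and Ndufs5 rose by 0.36 and 0.36, and Ndufb7 by 0.35 (adjusted p = 5.51e-05, 4.60e-05 and 7.50e-06). Ndufa7, an accessory subunit of the matrix arm, stood at 122, 117 and 119.6 CPM in LAC and 96.3, 88.9 and 97.4 CPM in EV, a log2 fold change of 0.34 with SE 0.048 (adjusted p = 1.52e-05). NDUFA1, a membrane-arm subunit needed for assembly, had 61.4, 63.2 and 64.3 CPM in LAC and 50.1 ± 0.153 CPM (SD, n = 3) in EV, with a log2 fold change of 0.32 with SE 0.055 (adjusted p = 9.82e-05). Its call in WTHK2 against EV, at 0.14 ± 0.055 SE with adjusted p = 0.0485, ended without any 1 of the EV or WTHK2 libraries (adjusted p between 0.0552 and 0.181) and without LAC replicates 1 or 3 (0.0505 and 0.0522). Ndufv1 did not pass in LAC at 0.098 (95% interval 0.010 to 0.19, adjusted p = 0.0592); LAC replicate 2 stood below 2 of the EV libraries, and without it Ndufv1 passed (adjusted p = 0.00283). It also passed without WTHK2 replicate 1 (adjusted p = 0.0464), which enters the estimate of the spread. Ndufa9 did not pass either, at 0.030. The calls of Ndufb10, Ndufc2 and Ndufs8 in LAC were lost in some fits with 1 library left out. Ndufb10 lost its call without EV replicate 1 (adjusted p = 0.0697) and Ndufs8 without LAC replicate 1 (0.0537). Ndufc2 lost its call without any 1 EV library or LAC replicates 1 or 3 (0.0598 to 0.188).

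Complex III had 6 of 7 members called higher in LAC, with a median of 0.18. Uqcrq, a small subunit, stood at 105, 95.3 and 99.0 CPM in LAC and 77.5, 77.4 and 81.3 CPM in EV, a log2 fold change of 0.34 with SE 0.050 (adjusted p = 2.30e-05). Uqcr10 rose by 0.24, Uqcr11 by 0.23, Uqcrfs1 by 0.18, Cyc1 by 0.16 and Uqcrc1 by 0.15. Uqcrc2 was at 0.049 (95% interval -0.044 to 0.14, adjusted p = 0.375).

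In complex V 10 of 12 members were called higher in LAC, with a median of 0.23. Atp5j2, subunit f of the membrane part, stood at 323, 297 and 315 CPM in LAC and 238, 241 and 248 CPM in EV, a log2 fold change of 0.36 with SE 0.040 (adjusted p = 1.61e-06). Atp5j rose by 0.36, Atp5k by 0.34 and Atp5mpl by 0.33, and Atp5c1 and Atp5d of the central stalk by 0.17 and 0.24. The 2 members that did not pass were the alpha and beta subunits of the catalytic head: Atp5a1 at 0.014 (95% interval -0.060 to 0.088) and Atp5b at 0.035 (95% interval -0.036 to 0.11). All 7 members outside the head and central stalk were called higher, and 3 of 5 within them, a difference that was not tested. Of these 7, Atp5pb lost its call without EV replicate 3 or LAC replicates 1 or 3 (adjusted p between 0.0814 and 0.119). Atpif1, the inhibitor of ATP synthase, which the symbol rule does not take in and which was looked up after the members' values were seen, stood at 128 ± 7.63 CPM in LAC and 102 ± 0.717 CPM in EV (SD, n = 3 each), a log2 fold change of 0.33 with SE 0.048 (adjusted p = 1.69e-05), and at 0.17 in WTHK2 against EV (adjusted p = 0.00558).

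The libraries labelled WTHK2 were also set directly against LAC. Of 59 members 1 was called higher and 8 lower in the libraries labelled WTHK2, beside 16.1% of all genes called, 8.37% higher and 7.76% lower (9.85% higher within the members' range of mean CPM). The groups did not overlap for 2 members higher and 13 lower in WTHK2, beside 14.5% of all genes higher and another 14.5% lower. The median log2 fold change was -0.053, beside 0.0041 over all genes, and 43 members were below 0. The members called lower were Cox6a1, NDUFA1, Ndufb8, Uqcrq, Ndufa7, Ndufa11, Atp5j and Atp5j2. Cox6a1 stood at 473, 409 and 424 CPM in the libraries labelled WTHK2 and 549, 490.3 and 463 CPM in LAC, a log2 fold change of -0.20 with SE 0.055 (adjusted p = 0.0161), with WTHK2 replicate 1 above LAC replicate 3. Ndufb8, a membrane-arm subunit, had 256, 236 and 249.8 CPM in the libraries labelled WTHK2 and 296, 263 and 279 CPM in LAC, without overlap, and a log2 fold change of -0.17 with SE 0.043 (adjusted p = 0.00881). NDUFA1 stood at 57.8, 54.2 and 53.7 CPM in the libraries labelled WTHK2 against 61.4, 63.2 and 64.3 CPM in LAC, also without overlap, with a log2 fold change of -0.19 with SE 0.055 (adjusted p = 0.0247). The other 5 had log2 fold changes of -0.16 for Uqcrq, -0.16 for Ndufa7, -0.14 for Ndufa11, -0.13 for Atp5j2 and -0.13 for Atp5j.

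Uqcrfs1 was the member called higher, with 238, 235 and 237 CPM in the libraries labelled WTHK2 and 215, 206 and 222 CPM in LAC, without overlap, and a log2 fold change of 0.15 with SE 0.039 (adjusted p = 0.0126). It passed in each of the 20 alternative fits at the same threshold. The 8 lower calls did not, and their number moved with single libraries: it was 1 without LAC replicate 1, 16 without LAC replicate 2, 2 without LAC replicate 3, and 1 without WTHK2 replicate 2 or replicate 3. The higher calls were 2 without LAC replicate 3 or WTHK2 replicate 2. LAC replicate 2 was the LAC library nearest to WTHK2, with a median of the members of 0.19 above the EV mean on the log2 scale, beside 0.30 and 0.27 in LAC replicates 1 and 3 and 0.18 to 0.20 in the libraries labelled WTHK2.

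**Figure D3:**
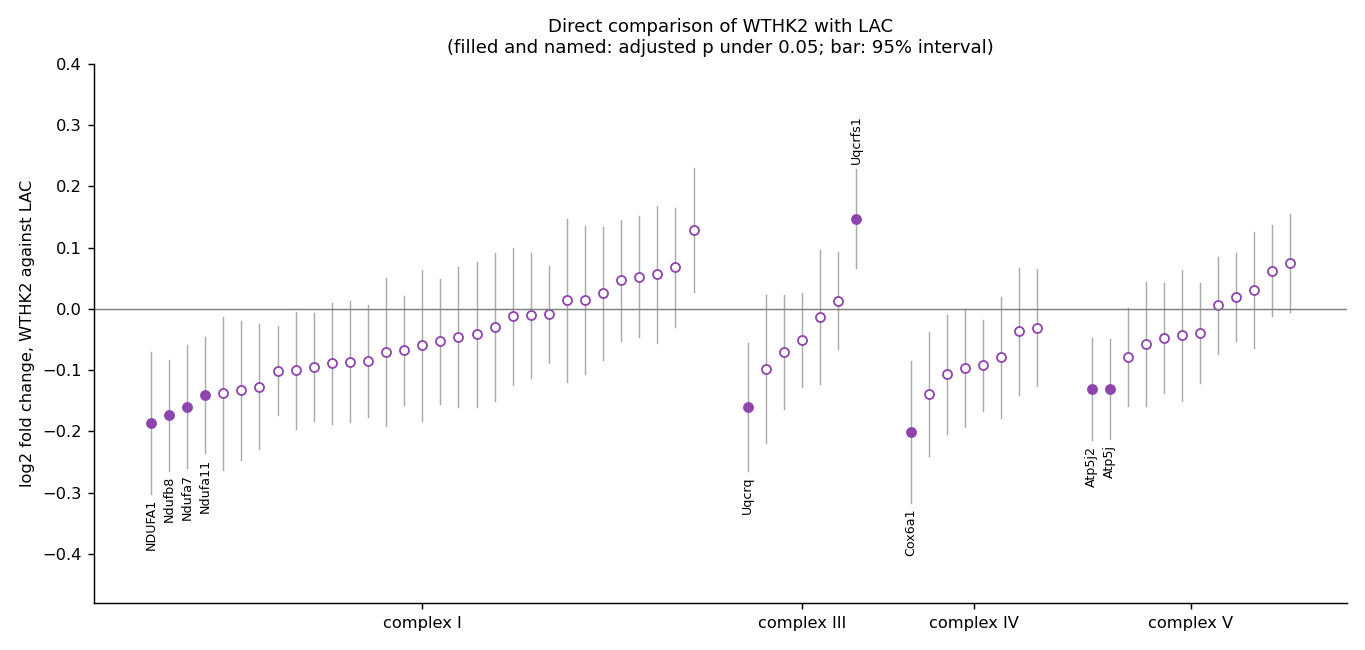
Log2 fold change with its 95% interval for 58 members in WTHK2 against LAC, sorted within each complex; filled, named points passed an adjusted p of 0.05. Uqcrfs1 is the filled point above 0, and the 8 filled points below 0 lie between -0.13 and -0.20.

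The level of the members by library is set beside other gene groups in the plot of medians. The members' median stood at 0.19, 0.18 and 0.20 above the EV mean in the libraries labelled WTHK2 and at 0.30, 0.19 and 0.27 in LAC, with EV libraries between -0.0095 and 0.014. Of the 4 complexes, complex IV varied most among the libraries labelled WTHK2, at 0.33 in replicate 1 and 0.16 and 0.18 in replicates 2 and 3, and at 0.38, 0.23 and 0.30 in LAC. The mitochondrially encoded subunits showed the same replicate as the highest, at 0.73, 0.45 and 0.40 in the libraries labelled WTHK2 and 0.80, 0.52 and 0.45 in LAC. With both first replicates of the WTHK2 and LAC groups left out, 48 members were called higher in WTHK2 and 53 in LAC against EV, and 5 were lower in WTHK2 against LAC.

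Other gene groups of mostly small proteins moved by like amounts in the same libraries. Of all genes, 21.0% were called higher and 25.4% lower in WTHK2 against EV, and 22.4% and 27.1% in LAC against EV. Mitochondrial ribosomal proteins, which translate the mitochondrially encoded subunits, were called higher in 42 of 69 cases in WTHK2 against EV and in 51 of 69 in LAC against EV, with medians of 0.19 and 0.21. Of 34 cytosolic ribosomal proteins 32 rose in WTHK2 and 33 in LAC (medians 0.19 and 0.26). Of 33 genes in families with no place in the mitochondrion (Lsm and Snrp splicing proteins, small RNA polymerase II subunits, proteasome core subunits and S100 proteins, chosen by symbol after the data were seen) 27 rose in WTHK2 and 30 in LAC (medians 0.20 and 0.22). Genes for very long proteins, 58 listed of 65 written down after the data were seen, went the other way, with 50 lower and 1 higher in WTHK2 (median -0.30) and 52 lower and 1 higher in LAC (median -0.30). That such genes were lower in WTHK2 and LAC was known beforehand, so their fall is not an independent observation. The respiratory medians of 0.20 in WTHK2 and 0.25 in LAC stand beside 0.19 to 0.20 and 0.21 to 0.26 in these 3 groups, and the part of a trend with protein size in the members' rise was not tested. Ndufv1, Uqcrc2, Ndufa9, Atp5a1 and Atp5b were among the members called in neither comparison with EV. Whether protein size has a part in that was not tested. Protein lengths were not analysed here.

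**Figure D4:**
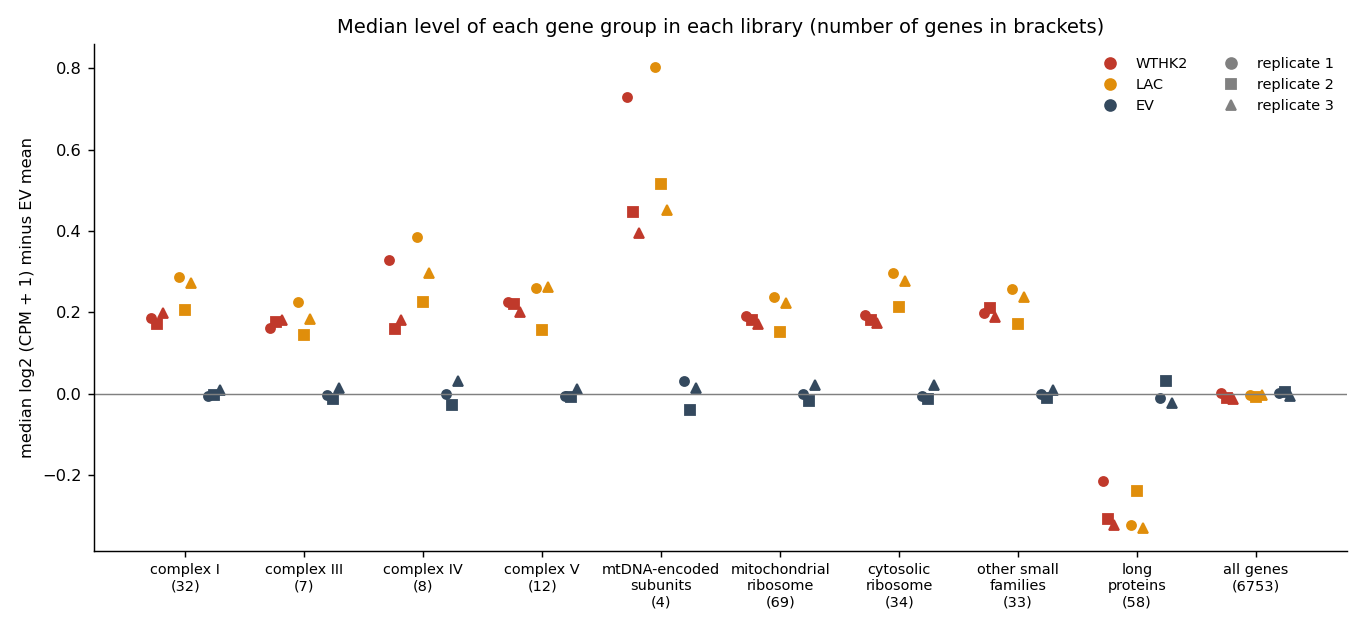
Median of log2(CPM + 1) minus the EV mean over the genes of each group, for each library; colours mark WTHK2, LAC and EV from left to right within a group, and symbols mark replicates. All 4 complexes lie between 0.14 and 0.38 in WTHK2 and LAC, as do the ribosomal and other small-protein groups, while the mitochondrially encoded subunits reach 0.80 and genes for long proteins lie at -0.21 or lower.

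Complex II, which links the TCA cycle to the chain and has no mitochondrially encoded subunit, was listed with all 4 genes. SDHC, a membrane anchor, stood at 113, 122 and 124 CPM in the libraries labelled WTHK2, 105, 108 and 109 CPM in LAC and 98.2, 105 and 96.3 CPM in EV. It rose in the libraries labelled WTHK2 (0.26 ± 0.049 SE with adjusted p = 2.63e-04 as log2 fold change) and was at 0.10 ± 0.049 SE with adjusted p = 0.0803 in LAC against EV. Sdhb, the iron-sulfur subunit, rose in both, by 0.13 in WTHK2 (adjusted p = 0.0133) and by 0.18 in LAC (adjusted p = 0.00137). Sdha, the catalytic flavoprotein, was at 0.029 (95% interval -0.042 to 0.099) in WTHK2 and -0.015 (95% interval -0.085 to 0.055) in LAC, and the anchor Sdhd at 0.071 and 0.047. In all, 2 of 4 genes were called higher in WTHK2, beside 21.0% of all genes. In LAC 1 of 4 was (25.0%), near the 22.4% of all genes, and 0 were called lower in either.

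Of 13 mitochondrially encoded subunits 4 were listed, and all 4 were called higher in both comparisons with EV. Of all genes, 21.0% were called higher in WTHK2 and 22.4% in LAC, and the difference from them was not tested. The medians of the 4 genes were 0.52 in WTHK2 and 0.59 in LAC. CYTB, cytochrome b of complex III, stood at 2462, 1952 and 1959 CPM in the libraries labelled WTHK2, 2596, 2116 and 2021 CPM in LAC and 1455, 1387 and 1470.1 CPM in EV. COX1, the oxygen-reducing subunit of complex IV, had 17192, 13896 and 13857 CPM in the libraries labelled WTHK2, 18085, 14466 and 14291 CPM in LAC and 10659, 10430.0 and 11117 CPM in EV. Replicate 1 was the highest library of its group for both genes in WTHK2 and in LAC. CYTB had a log2 fold change of 0.56 with SE 0.075 (adjusted p = 8.54e-06) in WTHK2 and a log2 fold change of 0.63 with SE 0.075 (adjusted p = 2.61e-06) in LAC, and COX1 was at 0.47 and 0.53. COX3 and ND4 had means of 24.0 ± 0.723 CPM and 22.0 ± 1.60 CPM in EV, near the lowest gene mean of 20.4 CPM. COX3 and ND4 were at 0.49 and 0.54 in WTHK2 and at 0.54 and 0.69 in LAC. Whether the rows under these symbols hold reads of the mitochondrial genome alone is not given in the sources used here.

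Assembly factors build the complexes without being part of them. Of 54 written down 29 were listed, and 7 were called higher and 3 lower in WTHK2 against EV (median 0.12), and 10 higher and 2 lower in LAC against EV (median 0.095). The share called higher was 24.1% in WTHK2, near the 21.0% of all genes, and 34.5% in LAC, beside 22.4% of all genes. Lower calls made up 10.3% in WTHK2 and 6.9% in LAC, beside 25.4% and 27.1% of all genes. Uqcc2, which helps cytochrome b into complex III, stood at 188 ± 4.01 CPM in the libraries labelled WTHK2, 180.3 ± 6.93 CPM in LAC and 147 ± 5.92 CPM in EV (means ± SD, n = 3 each), with a log2 fold change of 0.35 with SE 0.043 (adjusted p = 2.72e-06) in WTHK2 and a log2 fold change of 0.29 with SE 0.043 (adjusted p = 2.25e-05) in LAC. Coa3, an early factor of complex IV that binds the COX1 protein, rose by 0.35 and 0.22. Slirp, an RNA-binding protein that steadies mitochondrial mRNA, rose by 0.32 and 0.40. Uqcc3, another complex III factor, stood at 43.4 ± 0.524 CPM in WTHK2, 53.3 ± 1.51 CPM in LAC and 41.8 ± 3.87 CPM in EV, and was called only in LAC against EV, at 0.35 ± 0.067 SE with adjusted p = 2.98e-04, beside 0.055 in WTHK2. Directly compared, Uqcc3 was lower in WTHK2 than in LAC, at a log2 fold change of -0.29 (adjusted p = 0.00466). Cox15, which makes the heme A of complex IV, fell to 41.7 ± 6.50 CPM in the libraries labelled WTHK2 and 48.1 ± 4.55 CPM in LAC, against 60.2 ± 2.60 CPM in EV, with a log2 fold change of -0.53 with SE 0.089 (adjusted p = 8.56e-05) in WTHK2 and a log2 fold change of -0.32 with SE 0.089 (adjusted p = 0.00546) in LAC.

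Of 18 known regulators of respiratory genes written down 14 were listed, with 2 higher and 3 lower in WTHK2 against EV (median -0.012) and 4 higher and 3 lower in LAC against EV (median 0.013). That is 14.3% higher in WTHK2 and 28.6% in LAC, beside the same 21.0% and 22.4% of all genes. The share called lower was 21.4% in each comparison, not above the 25.4% and 27.1% of all genes. Nrf1, a transcription factor of respiratory genes, was at -0.0074 (95% interval -0.12 to 0.11) in WTHK2 and 0.011 (95% interval -0.10 to 0.13) in LAC. Tfam, which packages and transcribes mitochondrial DNA, was at -0.016 and 0.11, and neither value passed (adjusted p = 0.832 and 0.116). Sp1, a GC-box factor, fell to 30.4 ± 3.36 CPM in the libraries labelled WTHK2 and 30.4 ± 2.27 CPM in LAC, against 41.4 ± 1.11 CPM in EV, with a log2 fold change of -0.44 with SE 0.080 (adjusted p = 1.89e-04) in WTHK2 and a log2 fold change of -0.44 with SE 0.080 (adjusted p = 1.74e-04) in LAC. Gabpa, the DNA-binding subunit of GABP, was lower in LAC at -0.26 ± 0.052 SE with adjusted p = 4.52e-04 and at -0.12 in WTHK2 (adjusted p = 0.0565). Pprc1, a PGC-1-related coactivator, was lower in WTHK2 at -0.16 ± 0.043 SE with adjusted p = 0.00565 and at -0.026 in LAC (adjusted p = 0.643). Tfb1m, which modifies mitochondrial ribosomal RNA, rose by 0.22 in WTHK2 and 0.26 in LAC (adjusted p = 0.0134 and 0.00392). These are levels of RNA, which do not give the amount or activity of the factors.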

How the data were processed

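RNA of 9 MI5-4 CHO libraries (3 each of WTHK2, LAC and EV) was sequenced from mRNA libraries. The submitters' processing notes name STAR 2.7.0a, featureCounts 2.0.1 and edgeR 3.8, besides FastQC 0.11.8 and cutadapt 1.18. For the build, annotation and normalization method, the sources used here give nothing. The authors deposited normalized CPM for 6753 genes, whose columns sum to 80.3% to 81.4% of the total the unit implies. Values were whole multiples of a step within 0.01, which gave the library sizes. The least-counted gene had 304 reads in its lowest library, and how far depth limits precision was not tested.

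All genes were fitted on log2(CPM + 1) with limma 3.58.1 in R 4.3.3 (variance trend, 9 libraries, no covariates, mean of at least 1 CPM, which removed 0 genes), with two-sided tests and Benjamini-Hochberg adjustment over all genes. The fit was tested on simulated data. Tables were made with Python 3.11.15, numpy 2.4.6 and pandas 2.3.3, figures with matplotlib 3.10.9. Members and lists were chosen with earlier results of these data known. In each complex, named members were the largest called changes against EV without overlap between groups (up to 6 in complex I and 4 in the others), the smallest changes in WTHK2 against EV, and the members called between WTHK2 and LAC; other members are named by value only, and list genes were the called ones with the smallest adjusted p plus all of complex II and the mitochondrially encoded list. Nrf1, Tfam, Hk1, Hk2, Atpif1 and the markers were named outside that rule. So were members that did not pass or that lost a call with a library left out. Core subunits, the other small-protein families and the long-protein list were set after the data were seen. The division of complex V into head with central stalk and other genes was not planned. Alternatives covered pseudocount, filter, scaling, fit and left-out libraries. Values of 1 member and of some list genes are not reported here, though the counts include them. Planned promoter and protein-length descriptions were not made, since no sequence tables were used here.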

Additional observations from a re-analysis of the deposited data

How the results depend on the processing

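Of 47 members called higher in WTHK2 against EV, 39 were called in all 20 alternative fits at the same threshold, and of 53 in LAC against EV 49 were; the 1 higher call in WTHK2 against LAC held in all of them, and 0 of the 8 lower calls did. Over those fits, and at an adjusted p under 0.01, 39 to 53 members were higher in WTHK2 and 50 to 54 in LAC against EV. With quantile normalization 1 member was lower in LAC against EV: Atp5b, at -0.065 (adjusted p = 0.0182), whose sign turned there; the cause was not tested. In WTHK2 against LAC the lower calls were 4 in a fit of those 6 libraries, 2 without the variance trend, 1 at an adjusted p under 0.01, 5 without both first replicates, and 1 to 16 with single libraries left out; the higher calls were 0 at an adjusted p under 0.01, 2 with the replicate number as a block, and 1 to 2 with single libraries left out. All genes called there were 541 at an adjusted p under 0.01 and 662 to 1279 with single libraries left out, beside 1089. Rescaling libraries to one median, 57.3% of called genes were higher in WTHK2 against EV and 58.6% in LAC against EV, beside 45.3% in each with the authors' scaling. Residual correlations of same-numbered libraries ran from -0.0057 to 0.44, 4 of 9 over 0.1, with the highest between replicates 1 of WTHK2 and LAC. In 12 of 18 checks a library was closest to its own number in another group. The main fit did not take the numbers as pairs, and what libraries of 1 number share is not labelled. With the number as a block, 48 and 54 members were higher against EV and 11 lower in WTHK2 against LAC, beside 47, 53 and 8 in the main fit. The voom fit on implied reads was added after seeing the data, with 46 and 53 higher members against EV. edgeR and DESeq2 on recovered reads and the fits with a protein-length trend were not run. The limit on all calls is 3 libraries a group, and genes under the lower bound of the table were not analysed here.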

Other observations

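Genes that shape the inner membrane around the chain were partly higher. Of 13 genes for cristae and membrane organisation written down, 11 were listed, with 5 higher and 2 lower in WTHK2 against EV (median 0.11) and 7 higher and 1 lower in LAC against EV (median 0.15). That is 45.5% higher in WTHK2 and 63.6% in LAC, beside 21.0% and 22.4% of all genes. Lower calls made up 18.2% in WTHK2 and 9.09% in LAC, beside 25.4% and 27.1% of all genes. Phb, prohibitin, stood at 403 ± 17.5 CPM in the libraries labelled WTHK2, 373 ± 15.8 CPM in LAC and 337 ± 4.15 CPM in EV (means ± SD, n = 3 each), with log2 fold changes of 0.26 ± 0.039 SE with adjusted p = 2.90e-05 in WTHK2 and 0.15 ± 0.039 SE with adjusted p = 0.00418 in LAC. Micos10, a scaffold of the cristae junctions, rose by 0.22 and 0.22. Opa1, the GTPase that fuses inner membranes, fell to 123 ± 6.27 CPM in the libraries labelled WTHK2 and 125 ± 6.52 CPM in LAC, against 148 ± 3.09 CPM in EV (log2 fold changes of -0.27 and -0.24, adjusted p = 1.66e-04 and 3.62e-04). Of 10 genes for exchange of ATP, phosphate and ions 4 were listed. In WTHK2 against EV 1 of 4 was called higher, beside 21.0% of all genes, and in LAC against EV 2 of 4 were, beside 22.4%. Slc25a3, the phosphate carrier that feeds ATP synthase, rose by 0.092 in WTHK2 and 0.12 in LAC (adjusted p = 0.0286 and 0.00520). In each comparison 0 of 4 were called lower, beside 25.4% and 27.1% of all genes. With 4 genes listed, these counts cannot show a difference from all genes.

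Of 22 genes that make coenzyme Q, heme and cytochrome c 15 were listed, with 5 higher and 1 lower in WTHK2 against EV and 4 higher and 1 lower in LAC against EV. The share called higher was 33.3% in WTHK2, beside 21.0% of all genes, and 26.7% in LAC, near the 22.4% of all genes. Lower calls made up 6.67% in each comparison, beside 25.4% and 27.1% of all genes. Alas1, the rate-limiting enzyme of heme synthesis, stood at 64.2 ± 2.07 CPM in the libraries labelled WTHK2, 77.4 ± 3.85 CPM in LAC and 78.9 ± 2.42 CPM in EV. It was lower in WTHK2 than in EV, a log2 fold change of -0.29 with SE 0.054 (adjusted p = 2.00e-04), and than in LAC, a log2 fold change of -0.27 with SE 0.054 (adjusted p = 0.00168). Coq7, a hydroxylase of coenzyme Q synthesis, rose by 0.21 in WTHK2 and 0.25 in LAC (adjusted p = 0.0104 and 0.00251).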
